A study of Homo sapiens with 27 samples.

Results

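Adenylate cyclases make cyclic AMP from ATP, and the cyclic nucleotide phosphodiesterases break cyclic AMP and cyclic GMP down. Hormone receptors raise or lower cyclic AMP through G proteins that act on the cyclases, and the nucleotide then acts through protein kinase A, the exchange factors RAPGEF3 and RAPGEF4 and cyclic nucleotide-gated channels. In neuroendocrine cells cyclic AMP is known for promoting hormone secretion and, through the transcription factor CREB1, the transcription of peptide hormone genes. Every human protein-coding gene whose symbol is ADCY with a number, or PDE with a number up to 11 and a letter, was taken as a member, and its identifier was looked up in the deposited tables. This gave 34 genes, 10 cyclases and 24 phosphodiesterases, among 41686 human genes listed in the table of the shRNA libraries. The table of the siRNA libraries listed 33 of them, all but PDE6H. Counts of phosphodiesterases go by symbol and include 3 accessory PDE6 subunits, PDE6D, PDE6G and PDE6H. A mean of at least 10 normalized counts was reached by 29 members with shRNAs (10 cyclases and 19 phosphodiesterases) and by 26 with siRNAs (7 cyclases and 19 phosphodiesterases), 25 of them in both. PDE1B, PDE6B, PDE6H and PDE9A did not reach 10 in either table. Close to that limit in the shRNA table were ADCY8 (11.5), ADCY4 (15.1) and PDE6G (16.1) inside it, and PDE6B (9.2), PDE9A (8.7) and PDE1B (7.6) outside it, and in the siRNA table PDE6C (11.8) was just inside.

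RNA was sequenced from SHP77, a human small cell lung cancer line. In 6 libraries of total RNA the cells carried a lentiviral shRNA, selected with puromycin at 3 µg/ml for 3 days or more: circRMST shRNA 1 (n = 2), circRMST shRNA 2 (n = 2) or, as control, shGFP (n = 2). In 11 libraries of poly(A) RNA the cells had been transfected with an siRNA 72 hours earlier: SOX2 siRNA 1 and 2 (n = 2 each), NKX2-1 siRNA 1 and 2 (n = 2 each) or si-control (n = 3). circRMST is a circular RNA made from the RMST gene, and SOX2 and NKX2-1 are the transcription factors that the submitters describe as bound by it; the knockdowns ask which genes depend on each. All groups are the same line, so every statement here holds for 1 line, and the 10 ChIP-seq samples of the series of 27 were not analysed here. The submitters call the replicates biological without saying what was separate, so p-values cover only library-to-library spread, some of which may be technical.

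The libraries held 46.9 to 57.4 M reads with shRNAs and 15.5 to 50.1 M reads with siRNAs. SOX2 fell to 393 and 452 normalized counts on average with its siRNAs, against 1142 in si-control cells (2.70-fold). NKX2-1 fell to 1014 and 816 with its siRNAs, against 2234 (2.45-fold). Both factors also differed with circRMST knockdown. SOX2 averaged 2322 and 2681 with circRMST shRNA 1 and shRNA 2, against 2113 in shGFP cells (log2 0.24, limma adjusted p = 0.00238). NKX2-1 averaged 943 and 1275, against 1452 (-0.41, adjusted p = 0.000166). The whole RMST gene averaged 276 and 260 with the circRMST shRNAs, against 290 in shGFP cells (limma adjusted p = 0.478), and since it is counted over the gene it does not check the circle. All 5 neuroendocrine markers given here (CHGA, DLL3, INSM1, NCAM1, SYP) were detected. Their summed level was 16280 to 21950 normalized counts in the circRMST knockdown libraries, against 19510 to 21570 in shGFP libraries, and 37570 to 43780 with SOX2 or NKX2-1 siRNAs, against 36360 to 37000 in si-control libraries. These sums join genes that differed in opposite directions: with circRMST shRNA 1 and shRNA 2, INSM1 averaged 1890 and 2588, against 5592 in shGFP cells, SYP 723 and 531, against 1057, and CHGA 11100 and 7918, against 6623. Of 4 blood cell markers none reached a mean of 10, while 3 of 5 fibroblast markers and 1 of 3 endothelial markers did so with shRNAs, and 2 of 5 and 2 of 3 with siRNAs. The fibroblast sum was 373 to 812 with the circRMST shRNAs, against 172 to 253 in shGFP cells, and 216 to 291 with SOX2 siRNAs and 66.1 to 115 with NKX2-1 siRNAs, against 84.9 to 115 in si-control cells. Of the fibroblast markers LUM was higher in the circRMST knockdown, averaging 772 and 402, against 109.5 in shGFP cells, while COL1A1, COL1A2, DCN and PDGFRB averaged 0 to 11.5, against 7.71 to 45.8. The endothelial sum, nearly all PECAM1, was 147 to 179 with the circRMST shRNAs, against 395 to 397 in shGFP cells, and 75.1 to 136 with SOX2 siRNAs and 147 to 443 with NKX2-1 siRNAs, against 341 to 354 in si-control cells. The part of these sums in the results below was not tested. In bulk RNA, fewer cells of a kind and less RNA per cell cannot be told apart.

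The shGFP libraries had reads at many genes that the siRNA libraries did not detect. The siRNA libraries had no read at 1548 protein-coding genes. In each circRMST knockdown library 14.7% to 20.5% of these genes had 1 read or more, against 82.4% and 85.6% in the shGFP pair. For 99% of these genes, the shGFP mean exceeded the knockdown mean by less than 38.7 normalized counts. That size is given below beside each member whose fall is near it, and its part in those falls was not tested.

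In each knockdown some members rose and others fell. Each knockdown pools the 4 libraries of its 2 reagents, set against 2 shGFP or 3 si-control libraries. With circRMST knockdown 21 of 29 members passed limma's test at an adjusted p under 0.05 (all genes: 53.7%). Of these, 10 rose (all genes: 27.8%) and 11 fell (25.9%). Among the cyclases 2 of 10 rose and 6 fell, and among the phosphodiesterases 8 of 19 rose and 5 fell, PDE6D among them. Of the falling cyclases, ADCY4 and ADCY8 reached the mean of 10 only through the shGFP libraries. They averaged 42.0 and 32.4 there, against 1.67 and 1.02 with knockdown, so these 2 could pass only as lower. The members' median log2 fold change was -0.26, against 0.0015 over all genes tested. With SOX2 knockdown 18 of 26 passed (56.3%), 4 of them higher (27.6%) and 14 lower (28.7%), with a median of -0.33 against 0.0071. Here 2 of 7 cyclases rose and 4 fell, and 2 of 19 phosphodiesterases rose and 10 fell. With NKX2-1 knockdown 15 of 26 passed (39.9%), 7 higher (18.5%) and 8 lower (21.4%), with a median of 0.02 against -0.0043. Scaling each library to the same total made that split 12 higher and 7 lower. The SOX2 and NKX2-1 comparisons share the si-control libraries. Changes of at least 2-fold were found for 8 members with circRMST knockdown (15.2%), ADCY4 and ADCY8 among them. There were 5 with SOX2 knockdown (7.33%) and 2 with NKX2-1 knockdown (2.82%). The knockdown libraries did not overlap the controls for 21 members with circRMST knockdown (all genes: 56.7%), ADCY4 and ADCY8 again among them. For SOX2 knockdown there were 15 such members (49.5%) and for NKX2-1 knockdown 15 (33.9%).

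**Figure D1:**
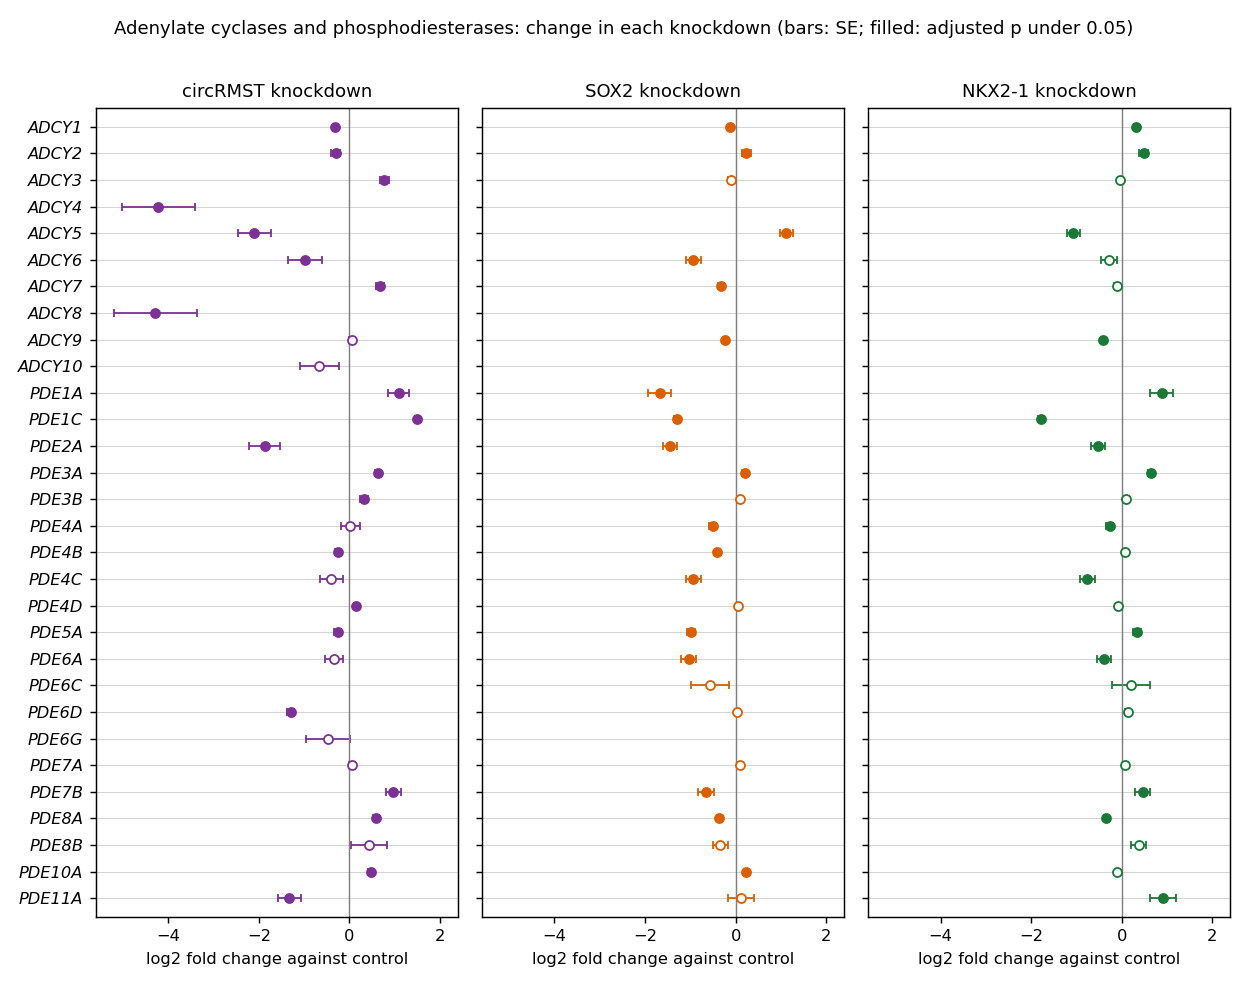
Log2 fold change of each member with a mean of at least 10, on the x axis, in circRMST knockdown (against shGFP), SOX2 knockdown and NKX2-1 knockdown (each against si-control). Bars are standard errors and filled points have an adjusted p under 0.05; a missing point was not tested in that table. ADCY4 (-4.22) and ADCY8 (-4.29) lie farthest left, and both reached the mean of 10 only through the shGFP libraries. PDE1C is right of 0 with circRMST knockdown (1.49) and left of it with SOX2 (-1.30) and NKX2-1 (-1.79) knockdown.

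The calcium- and calmodulin-stimulated cyclases are ADCY1, ADCY3 and ADCY8, which tie cyclic AMP to calcium entry. ADCY1 had 2196 and 2044 normalized counts with circRMST shRNA 1 and 2439 and 2243 with circRMST shRNA 2, against 2764 and 2758 in shGFP cells. Its level was below both control libraries in all 4 knockdown libraries (log2 fold change -0.31 ± 0.06 SE, limma adjusted p = 0.000152). In the siRNA table ADCY1 was 2123 and 2096 with SOX2 siRNA 1 and 2304 and 2408 with SOX2 siRNA 2, 3064 and 3122 with NKX2-1 siRNA 1 and 2989 and 2888 with NKX2-1 siRNA 2, against 2431, 2357 and 2496 in si-control cells. The NKX2-1 libraries were all above the controls (0.31 ± 0.04, adjusted p = 1.37e-07), and the SOX2 libraries overlapped them, with a small fall (-0.12 ± 0.04, adjusted p = 0.00667) that did not pass without si-control replicate 3 (adjusted p = 0.0514). ADCY3, known from olfactory cilia, had 660 and 638 with circRMST shRNA 1 and 627 and 682 with shRNA 2, against 417 and 348 in shGFP cells. Its knockdown libraries lay above both controls, 1.71-fold on average (log2 0.77 ± 0.10, adjusted p = 6.72e-07), while neither siRNA comparison passed (-0.11 ± 0.06 with SOX2 and -0.03 ± 0.06 with NKX2-1 knockdown). ADCY8, a brain cyclase, had 0 and 0.978 and 0 and 3.1 with the 2 circRMST shRNAs, against 27.7 and 37 in shGFP cells, and 0 to 1.41 in the siRNA libraries. Groups did not overlap and the fitted log2 fold change was -4.29 ± 0.92 (adjusted p = 0.000386), but the shGFP mean exceeded the knockdown mean by 31.4, within the 38.7 given above for genes with no read in the siRNA libraries.

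The calcium-inhibited cyclases ADCY5 and ADCY6 are also inhibited by Gi proteins. ADCY5 was lower with circRMST and with NKX2-1 knockdown and higher with SOX2 knockdown. ADCY5 had 8.38 and 12.7 normalized counts with circRMST shRNA 1 and 28.5 and 31 with circRMST shRNA 2, against 82.2 and 75.9 in shGFP cells. The groups did not overlap, and shRNA 1 gave the lowest values (4.29-fold lower on average, log2 -2.10 ± 0.36, adjusted p = 3.45e-05; shGFP minus knockdown 58.9 normalized counts). In the siRNA table, ADCY5 had 194 and 203 with SOX2 siRNA 1 and 184 and 217 with SOX2 siRNA 2, 44.4 and 43.8 with NKX2-1 siRNA 1 and 38.3 and 45.7 with NKX2-1 siRNA 2, against 110, 81.7 and 84.6 in si-control cells. Every SOX2 library was above the controls (2.17-fold, log2 1.12 ± 0.14, adjusted p = 1.69e-07) and every NKX2-1 library below them (2.10-fold, -1.07 ± 0.14, adjusted p = 8.16e-07), each siRNA alone passing in the same direction. Tested directly, the SOX2 siRNAs left 4.56 times as much ADCY5 as the NKX2-1 siRNAs (log2 2.19 ± 0.13, adjusted p = 9.58e-14). ADCY6 was 52.7 and 59.1 with SOX2 siRNA 1 and 37.4 and 30.9 with SOX2 siRNA 2, 93.4 and 96.9 with NKX2-1 siRNA 1 and 62 and 39.5 with NKX2-1 siRNA 2, against 78.6, 91.4 and 81.8 in si-control cells. It fell with SOX2 knockdown, with no overlap (-0.93 ± 0.17, adjusted p = 5.49e-05), and only siRNA 2 of NKX2-1 lowered it (-0.75, adjusted p = 0.00653; siRNA 1 0.18, adjusted p = 0.53). With circRMST knockdown ADCY6 had 31.4 and 21.5 and 39.5 and 17.6, against 55.5 and 50.3 in shGFP cells (-0.98 ± 0.37, adjusted p = 0.0294), a difference of 25.4 normalized counts that is within 38.7 and that did not pass after quantile normalization (adjusted p = 0.142).

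ADCY2, ADCY4 and ADCY7 can be stimulated by G protein beta-gamma subunits. In the shRNA cells ADCY2 had 766 and 759 normalized counts with circRMST shRNA 1 and 384 and 328 with circRMST shRNA 2, against 670 and 613 in shGFP cells. The values of shRNA 1 were above the controls and those of shRNA 2 below them, so that the average (-0.30 ± 0.10, adjusted p = 0.012) describes neither. In the siRNA cells ADCY2 was higher with NKX2-1 knockdown (380 and 358 and 295 and 305, against 230, 274 and 214 in si-control cells; 0.48 ± 0.09, adjusted p = 6.08e-05), and with SOX2 knockdown only siRNA 2 raised it (0.47, adjusted p = 0.00045; siRNA 1 0.00, adjusted p = 0.991). ADCY7, a cyclase known from blood cells, had 1023 and 922 with circRMST shRNA 1 and 848 and 761 with shRNA 2, against 554 and 548 in shGFP cells. It was thus higher in every knockdown library (1.60-fold, 0.68 ± 0.09, adjusted p = 4.83e-07), and lower with SOX2 knockdown (-0.32 ± 0.06, adjusted p = 4.3e-05). ADCY4 had 1.05 and 1.96 with circRMST shRNA 1 and 3.67 and 0 with shRNA 2, against 44.2 and 39.9 in shGFP cells, and 0 to 3.74 in the siRNA libraries. The fitted change was -4.22 ± 0.81 (adjusted p = 0.000125) and the difference, 40.4 normalized counts, was just above 38.7. ADCY9, which responds weakly to forskolin, fell with both sets of siRNAs (-0.23 ± 0.05 with SOX2 and -0.41 ± 0.05 with NKX2-1 knockdown, adjusted p = 0.000266 and 9.8e-08) and did not pass with circRMST knockdown (0.06 ± 0.06, adjusted p = 0.44). That average joined a rise with circRMST shRNA 1 (0.28, adjusted p = 0.00267) and a lower level with shRNA 2 that did not pass (-0.16, adjusted p = 0.0798). ADCY10, the bicarbonate-sensitive soluble cyclase, had 11.4 to 20.5 normalized counts with the circRMST shRNAs, against 24.7 and 29.8 in shGFP cells, and did not pass (adjusted p = 0.201).

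PDE1 enzymes are the calcium- and calmodulin-stimulated phosphodiesterases and cleave both nucleotides. PDE1C was the member with the smallest p-value in all 3 knockdowns, higher with circRMST knockdown and lower with the other two. PDE1C had 7730 and 7983 normalized counts with circRMST shRNA 1 and 4196 and 4356 with circRMST shRNA 2, against 2099 and 2019 in shGFP cells. All 4 knockdown libraries lay above both controls (2.81-fold, log2 1.49 ± 0.05, adjusted p = 2e-16), and shRNA 1 gave 0.88 ± 0.06 more on the log2 scale than shRNA 2 (adjusted p = 3.27e-10). PDE1C had 644 and 728 normalized counts with SOX2 siRNA 1, 879 and 852 with SOX2 siRNA 2, 624 and 579 with NKX2-1 siRNA 1 and 497 and 500 with NKX2-1 siRNA 2, against 1932, 1906 and 1837 in si-control cells. Both knockdowns were below all 3 controls, SOX2 by 2.45-fold (-1.30 ± 0.05, adjusted p = 3.45e-17) and NKX2-1 by 3.45-fold (-1.79 ± 0.05, adjusted p = 9.39e-20). The level was 1.41 times as high with SOX2 as with NKX2-1 siRNAs (0.49 ± 0.05, adjusted p = 3.15e-09).

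PDE1A had 105 and 104 normalized counts with circRMST shRNA 1 and 89.1 and 82.6 with circRMST shRNA 2, against 43.1 and 44.6 in shGFP cells. Groups did not overlap (2.13-fold higher, log2 1.09 ± 0.23, adjusted p = 0.00035). PDE1A had 9.25 and 16 with SOX2 siRNA 1 and 5.84 and 12.1 with SOX2 siRNA 2, 72.7 and 67 with NKX2-1 siRNA 1 and 60.9 and 60.5 with NKX2-1 siRNA 2, against 32.5, 34.1 and 38.1 in si-control cells. The SOX2 libraries were all below the controls (3.20-fold, -1.68 ± 0.26, adjusted p = 3.29e-06) and the NKX2-1 libraries all above them (1.85-fold, 0.88 ± 0.26, adjusted p = 0.00736). Between the SOX2 and NKX2-1 siRNAs the difference was 5.91-fold (-2.56 ± 0.24, adjusted p = 6e-10), the largest of any member in that comparison. The third gene of the family, PDE1B, had 0 to 4.13 normalized counts with the circRMST shRNAs, against 17.5 and 19.9 in shGFP cells, and 0 to 8.46 in the siRNA libraries, and was not tested.

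Promoters were searched for 3 motifs on both strands: TGACGTCA, the cyclic AMP response element (CRE) to which CREB1 binds, ACAATG, a SOX core, and CAAGTG, an NKX2 core. RefSeq promoters of GRCh38.p14, from 250 bases before to 50 after 1 listed start per gene, matched 27 of the 34 members. The CRE was in 2 of them (PDE4A and PDE7B), against 1.85% of 35116 promoters, the SOX core in 2 (ADCY10 and PDE4D), against 10.8%, and the NKX2 core in 4 (ADCY4, PDE4A, PDE5A and PDE7B), against 11.5%. A match is a run of letters and not a site shown to be bound. The listed start of some members, PDE1C among them (chr7:31616777-32428224), lies inside the gene, and which start SHP77 cells use was not tested. The promoter of PDE1C is printed because this gene had the smallest p-values; none of the 3 motifs is in this window, which is at chr7:32299279-32299578 on the minus strand:
PDE1C: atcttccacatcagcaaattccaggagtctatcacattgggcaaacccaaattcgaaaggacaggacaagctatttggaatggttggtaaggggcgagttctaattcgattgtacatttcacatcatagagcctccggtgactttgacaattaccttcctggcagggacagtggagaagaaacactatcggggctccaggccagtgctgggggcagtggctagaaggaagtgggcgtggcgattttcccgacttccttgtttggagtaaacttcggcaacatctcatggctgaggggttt

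**Figure D2:**
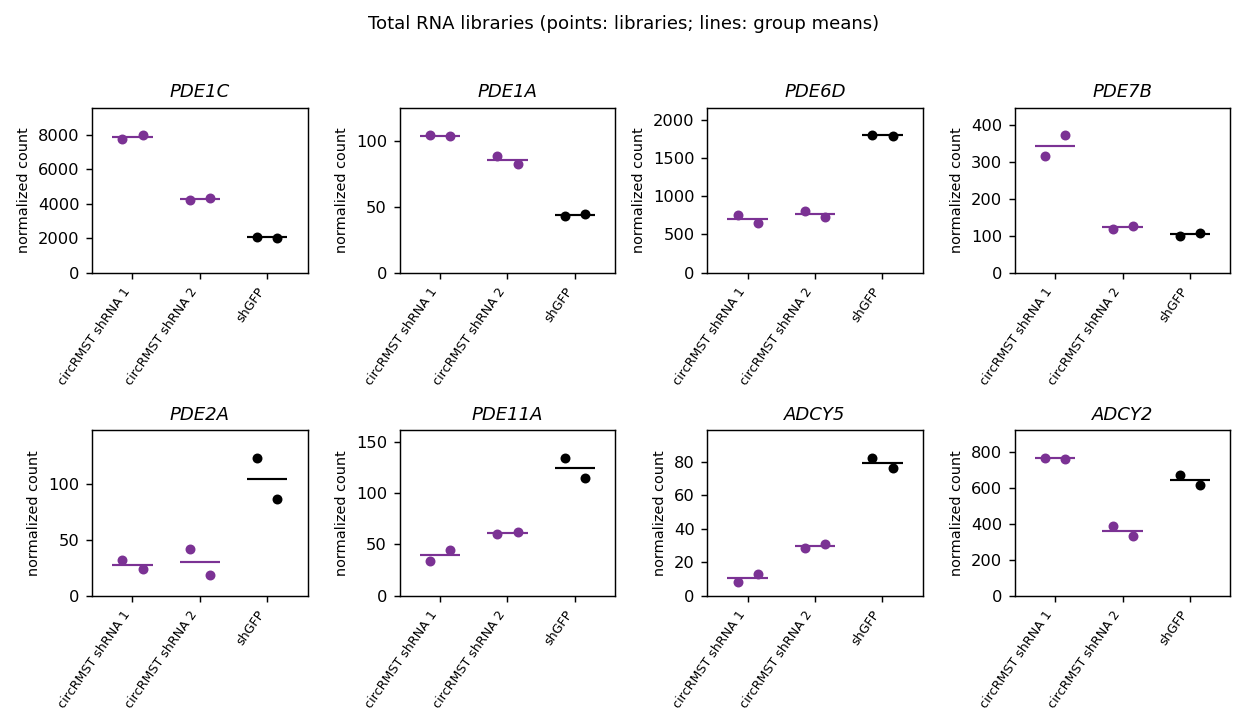
Normalized counts (y axis, from 0) of 8 members in the 6 total RNA libraries, with circRMST shRNA 1 and shRNA 2 left of shGFP. Points are libraries and lines are group means. PDE1C and PDE1A are above shGFP with both shRNAs, PDE6D, PDE2A, PDE11A and ADCY5 below it, and PDE7B and ADCY2 differ between the shRNAs.

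PDE2A is stimulated by cyclic GMP and lowers cyclic AMP in response. PDE2A had 31.4 and 23.5 normalized counts with circRMST shRNA 1 and 41.4 and 18.6 with circRMST shRNA 2, against 123 and 86.4 in shGFP cells. All knockdown libraries were below the controls (3.66-fold, log2 -1.87 ± 0.34, adjusted p = 6.59e-05; shGFP minus knockdown 76.1). PDE2A had 56.9 and 66.5 normalized counts with SOX2 siRNA 1, 51.4 and 32.2 with SOX2 siRNA 2, 58.5 and 73.2 with NKX2-1 siRNA 1 and 159 and 127 with NKX2-1 siRNA 2, against 122, 152 and 144 in si-control cells. SOX2 knockdown libraries were all below the controls (2.74-fold, -1.45 ± 0.16, adjusted p = 2.01e-08). With NKX2-1 siRNA 1 the values were below the controls (-1.07, adjusted p = 7.19e-05), and with siRNA 2 they overlapped them (0.03, adjusted p = 0.919), so the pooled fall (-0.52 ± 0.16, adjusted p = 0.0127) rests on siRNA 1. Without si-control replicate 2, NKX2-1 siRNA 1 replicate 1 or NKX2-1 siRNA 2 replicate 2 it did not pass (adjusted p = 0.0709, 0.057 and 0.0668).

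PDE3 enzymes, which cleave cyclic AMP and are inhibited by cyclic GMP, moved up where they moved. PDE3A was the only member of the 25 in both tables that rose in all 3 knockdowns. PDE3A had 3144 and 3338 normalized counts with circRMST shRNA 1 and 1825 and 1846 with circRMST shRNA 2, against 1594 and 1559 in shGFP cells. Its rise was larger with shRNA 1 (1.04) than with shRNA 2 (0.22), a difference of 0.82 ± 0.07 (adjusted p = 9.74e-09). In siRNA cells PDE3A averaged 548 normalized counts with SOX2 siRNAs and 747 with NKX2-1 siRNAs, against 478 with si-control (0.20 ± 0.06 and 0.64 ± 0.06, adjusted p = 0.00626 and 1.35e-09), with no overlap in either comparison. PDE3B, known for its part in insulin's effect on fat cells, rose with circRMST knockdown (0.32 ± 0.08, adjusted p = 0.00122), a call that was lost when libraries were scaled to equal totals (adjusted p = 0.0633).

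PDE10A and PDE11A also cleave both nucleotides. PDE10A, best known from striatal neurons, averaged 4041 normalized counts with the circRMST shRNAs, against 2896 in shGFP cells, and 1434 with the SOX2 siRNAs, against 1209 in si-control cells. Both rises passed (0.47 ± 0.05 and 0.24 ± 0.05, adjusted p = 1.37e-07 and 0.000134), the SOX2 libraries overlapping the controls. PDE11A had 33.5 and 45 normalized counts with circRMST shRNA 1 and 60.6 and 62 with circRMST shRNA 2, against 135 and 115 in shGFP cells. It was lower in every knockdown library (2.52-fold, log2 -1.33 ± 0.25, adjusted p = 8.98e-05; shGFP minus knockdown 74.4). With NKX2-1 siRNA 1 PDE11A had 21.7 and 27.8 and with siRNA 2 42.8 and 56.8, against 22.5, 20.7 and 12.7 in si-control cells. The siRNA 1 values overlapped the controls. The pooled rise (0.91 ± 0.29, adjusted p = 0.014) did not pass without si-control replicate 3, NKX2-1 siRNA 1 replicate 2 or NKX2-1 siRNA 2 replicate 2 (adjusted p = 0.102, 0.0541 and 0.0631).

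The cyclic AMP selective enzymes are the PDE4, PDE7 and PDE8 families, 8 genes, all tested in both tables. With circRMST knockdown 3 rose (all genes: 27.8%) and 1 fell (25.9%), with SOX2 knockdown none rose (27.6%) and 5 fell (28.7%), and with NKX2-1 knockdown 1 rose (18.5%) and 3 fell (21.4%). The fall with circRMST knockdown was that of PDE4B, at 2446 normalized counts, against 2916 in shGFP cells (-0.26 ± 0.06, limma adjusted p = 0.00109). Taken alone, shRNA 2 passed for PDE4B (-0.35, adjusted p = 0.00028) and shRNA 1 did not (-0.17, adjusted p = 0.0559). PDE4 enzymes, the targets of rolipram and roflumilast, fell with SOX2 knockdown in 3 of 4 cases: PDE4A averaged 275 normalized counts, against 393 in si-control cells (-0.51 ± 0.08, adjusted p = 3.27e-06), PDE4B 1203, against 1598 (-0.41 ± 0.04, adjusted p = 4.78e-09), and PDE4C 54.3, against 104 (-0.93 ± 0.16, adjusted p = 1.78e-05). None of these 3 groups overlapped its controls. PDE4A and PDE4C were lower with NKX2-1 knockdown too (-0.27 ± 0.08 and -0.76 ± 0.16, adjusted p = 0.00784 and 0.000397), the PDE4A call being lost without si-control replicate 3 (adjusted p = 0.0669), while PDE4B did not pass (0.07 ± 0.04). PDE4D, the fourth gene, had 6020 to 7348 normalized counts with the circRMST shRNAs, against 5884 and 6215 in shGFP cells. That overlap went with a small rise (0.14 ± 0.05, adjusted p = 0.0201) that was absent when libraries were scaled to equal totals (-0.01, adjusted p = 0.91).

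PDE7B had 315 and 372 normalized counts with circRMST shRNA 1 and 118 and 127 with circRMST shRNA 2, against 99.7 and 108 in shGFP cells. PDE7B, a cyclic AMP phosphodiesterase found in brain and pancreas, lay just above the controls with shRNA 2 (0.23, adjusted p = 0.322) and well above them with shRNA 1 (1.71, adjusted p = 5.39e-08), so the pooled rise of 0.97 ± 0.16 (adjusted p = 2.15e-05) rests on shRNA 1. It averaged 46.7 normalized counts with SOX2 siRNAs and 99.2 with NKX2-1 siRNAs, against 71.8 with si-control. The SOX2 libraries, 34.2 to 67.7, overlapped the lowest control at 64.9 (-0.65 ± 0.17, adjusted p = 0.00196), and the NKX2-1 libraries were all above the controls (0.46 ± 0.17, adjusted p = 0.0336), a call lost without NKX2-1 siRNA 1 replicate 1 (adjusted p = 0.127). Between the SOX2 and NKX2-1 siRNAs PDE7B differed 2.16-fold (-1.11 ± 0.16, adjusted p = 1.02e-06). PDE8A, an enzyme of high affinity for cyclic AMP, had 3202 and 3187 with circRMST shRNA 1 and 2452 and 2439 with shRNA 2, against 1872 and 1832 in shGFP cells (0.59 ± 0.06, adjusted p = 6.72e-09). It fell with SOX2 and with NKX2-1 knockdown (-0.37 ± 0.05 and -0.34 ± 0.05, adjusted p = 9.7e-07 and 8e-06), all with no overlap, which is the pattern of signs that PDE1C had. PDE7A and PDE8B passed in no knockdown, with fitted changes of 0.06 to 0.09 for PDE7A and -0.34 to 0.44 for PDE8B.

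The 2 members with a CRE in the promoter window are shown with their matches in capitals. In PDE7B (chr6:135851451-135851750, plus strand) the CRE begins 155 bases before the start and an NKX2 core, read on the other strand, 40 bases after it. In PDE4A (chr19:10416523-10416822, plus strand) the CRE begins 3 bases before the start and the NKX2 core 26 bases after it:
PDE7B: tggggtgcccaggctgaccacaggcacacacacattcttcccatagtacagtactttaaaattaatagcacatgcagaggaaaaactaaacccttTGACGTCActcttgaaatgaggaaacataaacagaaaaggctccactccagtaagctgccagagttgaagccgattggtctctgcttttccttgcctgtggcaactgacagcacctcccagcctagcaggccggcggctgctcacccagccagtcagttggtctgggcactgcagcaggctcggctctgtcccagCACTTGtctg
PDE4A: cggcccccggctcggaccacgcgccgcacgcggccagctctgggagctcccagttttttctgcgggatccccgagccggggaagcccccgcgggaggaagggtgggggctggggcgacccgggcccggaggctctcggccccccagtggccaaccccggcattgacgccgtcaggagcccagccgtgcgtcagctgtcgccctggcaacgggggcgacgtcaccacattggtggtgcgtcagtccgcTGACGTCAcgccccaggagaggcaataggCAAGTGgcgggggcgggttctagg

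The cyclic GMP selective enzymes are PDE5A, PDE9A and the photoreceptor PDE6 subunits. PDE5A, the target of sildenafil, was lower with SOX2 knockdown and higher with NKX2-1 knockdown. PDE5A had 129 and 140 normalized counts with SOX2 siRNA 1, 151 and 148 with SOX2 siRNA 2, 370 and 371 with NKX2-1 siRNA 1 and 347 and 346 with NKX2-1 siRNA 2, against 277, 268 and 302 in si-control cells. No library of either knockdown overlapped the controls (SOX2 1.98-fold lower, log2 -0.99 ± 0.09, adjusted p = 1.49e-10; NKX2-1 1.27-fold higher, 0.34 ± 0.09, adjusted p = 0.00205), and the SOX2 and NKX2-1 siRNAs differed 2.52-fold (-1.33 ± 0.08, adjusted p = 7.52e-14). With the circRMST shRNAs it was 932 and 1046 and 881 and 960, against 1190 and 1090 in shGFP cells, a small fall (-0.26 ± 0.08, adjusted p = 0.00912) that did not pass without shGFP replicate 1 (adjusted p = 0.137). Its promoter (chr4:119628755-119629054, minus strand) is printed because PDE5A moved in opposite directions with the SOX2 and NKX2-1 siRNAs; the capitals are an NKX2 core on the other strand, 221 bases before the start, and no SOX core was found in this window:
PDE5A: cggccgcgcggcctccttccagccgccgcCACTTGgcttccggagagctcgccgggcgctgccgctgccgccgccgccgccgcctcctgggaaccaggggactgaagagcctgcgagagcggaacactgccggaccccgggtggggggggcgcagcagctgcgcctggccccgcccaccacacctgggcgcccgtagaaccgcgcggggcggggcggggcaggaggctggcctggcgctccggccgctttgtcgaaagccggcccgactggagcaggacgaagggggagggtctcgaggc

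**Figure D3:**
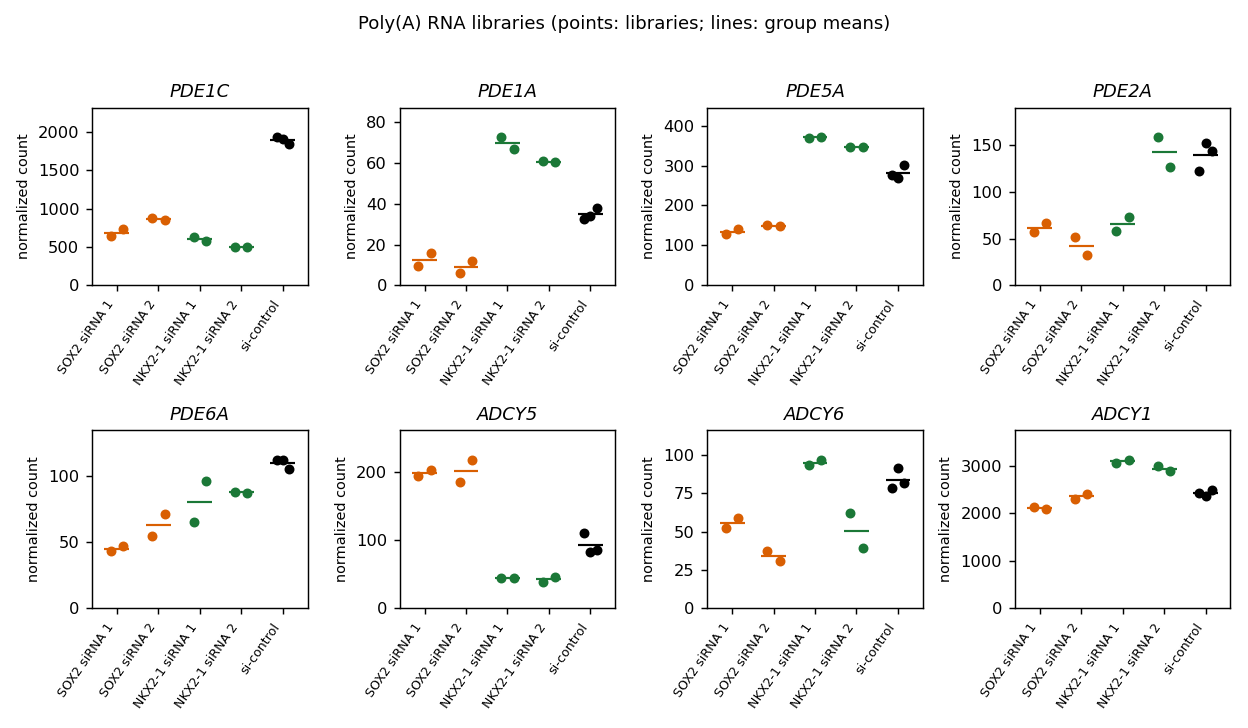
Normalized counts (y axis, from 0) of 8 members in the 11 poly(A) RNA libraries, with SOX2 siRNA 1 and 2 and NKX2-1 siRNA 1 and 2 left of si-control. Points are libraries and lines are group means. PDE1C is below si-control with all 4 siRNAs, ADCY5 is above it with SOX2 and below it with NKX2-1 siRNAs, and PDE1A and PDE5A are below it with SOX2 and above it with NKX2-1 siRNAs.

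PDE6A is a catalytic subunit of the rod photoreceptor enzyme. PDE6A had 43.4 and 46.8 normalized counts with SOX2 siRNA 1, 54.9 and 71.1 with SOX2 siRNA 2, 65.1 and 96.5 with NKX2-1 siRNA 1 and 87.9 and 87.6 with NKX2-1 siRNA 2, against 112, 112 and 106 in si-control cells. The SOX2 libraries were all below the controls (2.05-fold, log2 -1.04 ± 0.16, adjusted p = 3.02e-06). SOX2 siRNAs left less PDE6A than NKX2-1 siRNAs (-0.64 ± 0.15, adjusted p = 0.00052). The NKX2-1 libraries were also below the controls (-0.39 ± 0.16, adjusted p = 0.0488), a call lost without any 1 of the 3 si-control libraries (adjusted p = 0.0765 to 0.118) and without NKX2-1 siRNA 1 replicate 1 (0.267), NKX2-1 siRNA 2 replicate 1 (0.0896) or NKX2-1 siRNA 2 replicate 2 (0.0914). PDE6A did not pass with circRMST knockdown (-0.34 ± 0.20, adjusted p = 0.167). PDE6C, the cone subunit, had 4.93 to 10.5 normalized counts with SOX2 and 9.44 to 22.9 with NKX2-1 siRNAs, against 5.64 to 20.7 in si-control cells, and passed in neither.

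PDE6D is not an enzyme: it is a chaperone that carries prenylated proteins such as RAS family members between membranes. PDE6D had 749 and 653 normalized counts with circRMST shRNA 1 and 803 and 724 with circRMST shRNA 2, against 1797 and 1791 in shGFP cells. All 4 knockdown libraries were below both controls, and both shRNAs passed alone (2.45-fold lower, log2 -1.30 ± 0.08, adjusted p = 3.56e-12; -1.36 with shRNA 1 and -1.23 with shRNA 2). The siRNA libraries had 567 to 703 with SOX2 and 661 to 727 with NKX2-1 siRNAs, against 593 to 691 in si-control cells, and neither comparison passed (0.04 ± 0.06 and 0.13 ± 0.06, adjusted p = 0.646 and 0.0938), though NKX2-1 knockdown did after scaling to equal totals (0.19, adjusted p = 0.0166). PDE6G, the inhibitory rod subunit, had 11.0 to 18.6 normalized counts with the circRMST shRNAs, against 19.0 and 20.6 in shGFP cells (adjusted p = 0.431). PDE6B, the other rod catalytic subunit, and PDE9A were not tested: with the circRMST shRNAs they had 0 to 5.17 and 0 to 1.05, against 19.0 and 28.8 and 22.6 and 27.5 in shGFP cells.

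The 11 falls with circRMST knockdown depended in part on the control libraries. Without shGFP replicate 1, 6 members passed as lower in place of 11: ADCY4 and ADCY8 no longer reached the mean of 10, and ADCY2, ADCY6 and PDE5A had adjusted p-values of 0.137, 0.162 and 0.137. With a minimum mean of 50, 7 falls remained, and ADCY4, ADCY5, ADCY6 and ADCY8 were not tested. Of the 11, 9 had a difference above the 38.7 normalized counts seen in genes with no read in the siRNA libraries, and ADCY6 and ADCY8 did not. Passing with each shRNA alone, 7 members were higher (all genes: 19.6%) and 7 lower (17.4%). Among the 7 lower are ADCY4 and ADCY8, which reached the mean of 10 only through the shGFP libraries and could pass only as lower. By the same count SOX2 knockdown gave 1 higher (18.6%) and 12 lower (19.3%), and NKX2-1 knockdown 4 higher (8.88%) and 5 lower (10.2%). No member passed in opposite directions with both reagents to 1 target (all genes: 0.519%, 1.01% and 1.78% for circRMST, SOX2 and NKX2-1). The reagents themselves differed in 10 of 29 members between the circRMST shRNAs (all genes: 19.1%), 9 of them higher with shRNA 1 (10.9%) and 1 lower (8.2%), in 7 of 26 between the SOX2 siRNAs (18.5%) and in 5 of 26 between the NKX2-1 siRNAs (26.5%).

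Compared directly, SOX2 and NKX2-1 knockdown differed in 19 of 26 members (all genes: 55.8%). The level was higher with SOX2 siRNAs in 5 (27.9%) and lower in 14 (28%). Beside ADCY5 and PDE1C, the 5 were ADCY9 (0.19 ± 0.05), PDE10A (0.34 ± 0.05) and PDE4D (0.13 ± 0.04). The PDE4D call was lost when libraries were scaled to equal totals (adjusted p = 0.117). Changes of 2-fold or more were those of ADCY5, PDE1A, PDE5A and PDE7B given above (5.54%). The 2 sets of libraries did not overlap for 12 members (35.2%). Among the 25 members tested in both tables, 2 had PDE1C's order of signs (higher, lower, lower for circRMST, SOX2 and NKX2-1: PDE1C and PDE8A), 2 were higher, lower, higher (PDE1A and PDE7B), 2 were lower, lower, higher (ADCY1 and PDE5A) and 1 was lower in all 3 (PDE2A). Of these calls, PDE2A with NKX2-1 and PDE7B with circRMST knockdown rest on 1 reagent. PDE5A with circRMST knockdown passed for shRNA 2 (-0.31, limma adjusted p = 0.00817) and not for shRNA 1 (-0.21, adjusted p = 0.0675). With SOX2 siRNA 2, ADCY1 (2304 and 2408 normalized counts) and PDE7B (67.73 and 42.95) overlapped the si-control libraries (2357 to 2496 and 64.89 to 76.11). ADCY1 with SOX2 and PDE5A with circRMST knockdown did not pass without 1 control library, as given above. PDE6D passed with circRMST knockdown and with neither set of siRNAs. Another 4 members (ADCY9, PDE4A, PDE4C and PDE6A) were lower with both sets of siRNAs without passing for the 2 circRMST shRNAs pooled. The shRNA and siRNA experiments were normalized separately and differ in library kind, so their sizes were not tested against each other.

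**Figure D4:**
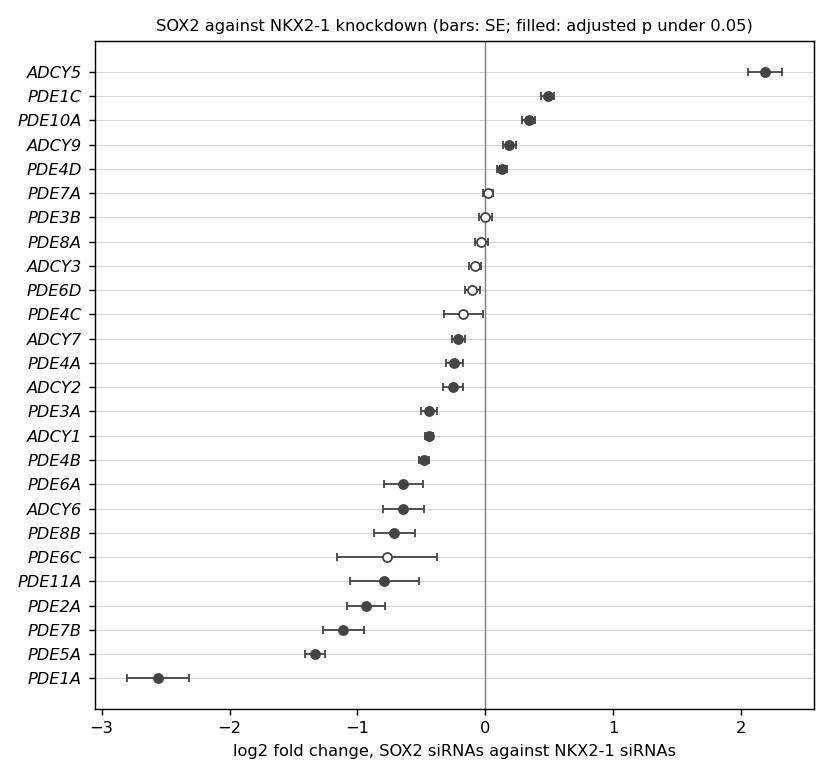
Log2 fold change of 26 members (x axis) between SOX2 siRNA libraries and NKX2-1 siRNA libraries (n = 4 each), sorted by value. Bars are standard errors and filled points have an adjusted p under 0.05. ADCY5 (2.19) lies farthest right and PDE1A (-2.56) farthest left.

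The rest of the pathway was read from 128 other genes in 9 lists, of which 93 could be tested with shRNAs and 85 with siRNAs. With circRMST knockdown 33 rose (all genes: 27.8%) and 34 fell (25.9%), with a median log2 fold change of -0.13, against 0.0015 over all genes. With SOX2 knockdown 20 rose (27.6%) and 37 fell (28.7%), with a median of -0.13 against 0.0071, and with NKX2-1 knockdown 17 rose (18.5%) and 27 fell (21.4%), with -0.07 against -0.0043. The counts of each list below stand beside these same shares of all genes. Of 15 tested Gs-coupled receptors and ligands, 3 rose and 7 fell with circRMST knockdown. VIPR2, a receptor for vasoactive intestinal peptide, averaged 19.4 ± 16.6 normalized counts there (SD, n = 4), against 76.5 ± 2.19 in shGFP cells (n = 2; log2 -2.36, adjusted p = 2.52e-05; shGFP minus knockdown 57.2). Of 13 tested in the siRNA table, 2 rose and 6 fell with SOX2 knockdown and 2 rose and 4 fell with NKX2-1 knockdown. PTGER4, a prostaglandin E2 receptor, averaged 36.5 ± 12.5 with SOX2 siRNAs (n = 4), against 122 ± 7.62 in si-control cells (n = 3; -1.79, adjusted p = 1.05e-08). CALCA, which encodes calcitonin and its related peptide, fell with NKX2-1 knockdown (-1.05, adjusted p = 1.14e-20). Of 7 G protein alpha subunits 3 rose and 3 fell with circRMST, 2 and 1 with SOX2 and 2 and 0 with NKX2-1 knockdown.

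Downstream of the nucleotide, PKIA, a protein inhibitor of protein kinase A, averaged 285 ± 21.9 normalized counts with circRMST knockdown (SD, n = 4), against 898.6 ± 57.3 in shGFP cells (n = 2; -1.65, adjusted p = 1.1e-11). PRKACA, the main catalytic subunit of that kinase, fell as well (-0.80, adjusted p = 4.28e-08), and the inhibitor PKIB rose in all 3 knockdowns (0.51, 0.48 and 0.81, adjusted p = 3.73e-06, 7.34e-08 and 1.1e-11). Over the 10 tested subunits and inhibitors, 3 rose and 3 fell with circRMST, 4 and 3 with SOX2, and 4 and 2 with NKX2-1 knockdown. Of 11 tested A-kinase anchoring proteins, which hold the kinase near its substrates, 9 rose and 1 fell with circRMST knockdown (median 0.45; all genes: 27.8% and 25.9%), 3 rose and 3 fell with SOX2 knockdown (-0.07; 27.6% and 28.7%), and none rose and 4 fell with NKX2-1 knockdown (-0.06; 18.5% and 21.4%). AKAP6 averaged 1661 ± 105 with the circRMST shRNAs, against 796 ± 20.2 in shGFP cells (1.06, adjusted p = 2.62e-11). AKAP12 rose with circRMST knockdown (1.48, adjusted p = 1.04e-09) and fell with SOX2 knockdown (-1.10, adjusted p = 2.54e-05). Effectors other than the kinase, which include channels and exchange factors, gave 3 higher and 5 lower of 12 with circRMST, 0 and 6 of 9 with SOX2, and 2 and 1 of 9 with NKX2-1 knockdown. The channel gene HCN4 averaged 5.99 with the circRMST shRNAs, against 50.8 in shGFP cells (-3.18, adjusted p = 0.000175; shGFP minus knockdown 44.8, near the 38.7 given for genes with no read in the siRNA libraries), and 10.1 with SOX2 siRNAs, against 28.5 in si-control cells (-1.69, adjusted p = 0.000878). RAPGEF3, an exchange factor opened by cyclic AMP, fell with SOX2 knockdown (-0.94, adjusted p = 1.98e-07).

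For CREB family members and coactivators, 6 of 10 rose and 2 fell with circRMST, 4 of 11 rose and 3 fell with SOX2, and 4 of 11 rose and 2 fell with NKX2-1 knockdown. Of the genes listed as CREB-responsive, 3 of 16 rose and 8 fell with circRMST (all genes: 27.8% and 25.9%), 4 of 15 rose and 10 fell with SOX2 (27.6% and 28.7%), and 2 of 15 rose and 10 fell with NKX2-1 knockdown (18.5% and 21.4%), with medians of -0.58, -0.72 and -0.45. VGF, a secreted neuroendocrine protein, averaged 8753 ± 3402 normalized counts with the circRMST shRNAs (SD, n = 4), against 2418 ± 691 in shGFP cells (n = 2), 1.80 higher on the log2 scale (adjusted p = 5.58e-13), and it was lower with SOX2 and NKX2-1 knockdown (-1.51 and -1.19, adjusted p = 2.08e-21 and 5.71e-19). CGA, the alpha subunit of glycoprotein hormones, was lower with circRMST and NKX2-1 knockdown (-2.25 and -1.02, adjusted p = 4.72e-19 and 1.02e-19). It averaged 3350 ± 2586 with the circRMST shRNAs, against 11940 ± 520 in shGFP cells, and 4599 ± 1063 with NKX2-1 siRNAs, against 9146 ± 113. Pathway genes are given only for the 2 reagents pooled. Their p-values rest on the spread within each reagent and do not measure how well the reagents agree. SST, somatostatin, averaged 125 ± 19.2 with SOX2 siRNAs, against 21.4 ± 7.12 in si-control cells (2.52, adjusted p = 9.62e-11). On the cyclic GMP side, 1 of 9 guanylate cyclases and related genes rose and 5 fell with circRMST knockdown, and none of 7 rose and 4 fell in each siRNA knockdown. The largest of the circRMST falls were at low levels: GUCY2D, NPR1 and NOS3 averaged 2.97, 3.61 and 9.01 normalized counts in knockdown cells, against 66.7, 53.7 and 57.7 in shGFP cells (differences of 63.7, 50.1 and 48.7), the libraries that had reads at many silent genes. PRKG2, a cyclic GMP-dependent kinase, fell with SOX2 and NKX2-1 knockdown (-0.45 and -0.74, adjusted p = 4.53e-07 and 1.47e-10). The exporters of cyclic nucleotides ABCC4 and ABCC5 both rose with circRMST knockdown (0.84 and 0.89, adjusted p = 1.59e-12 and 1.34e-11), out of 3 tested. With SOX2 knockdown ABCC5 rose (0.35, adjusted p = 1.28e-07) and ABCC4 fell (-0.32, adjusted p = 1.43e-07), and with NKX2-1 knockdown ABCC5 rose (0.25, adjusted p = 5.12e-05).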

How the data were processed

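RNA sequencing libraries of SHP77 cells were grouped by the reagent and replicate in their labels. The deposited signal gives, for each gene, 1 normalized count in every library, and shRNA and siRNA libraries have a table each. The tools the authors name in the submitters' processing notes are cutadapt 2.5, STAR 2.5.2b and DESeq2, on hg38. The version of DESeq2, the annotation, the counter and its strand setting are not given in the sources used here, so overlapping and antisense genes could not be separated. Per the labels' protocols, the shRNA libraries came from a stranded total RNA kit and the siRNA libraries from a poly(A) kit. In the shRNA libraries 40.5% to 45.4% of reads were on MT-RNR2. Divided by each library's step, 100% of the values were whole reads within 0.05 reads, which gave the depths and the reads for a count test. With no exon lengths at hand, levels were not compared between genes.

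Non-human features (55 and 38) and pseudoautosomal Y copies (7 and 11) were left out. Genes with a mean of at least 10 were tested (19068 with shRNAs, 16750 with siRNAs). The test was that of limma 3.58.1 (R 4.3.3) on log2-transformed normalized counts with a pseudocount of 1, so fold changes understate those of low genes. The fit had a mean per group, all libraries of a table and a mean-variance trend. Tests were two-sided with Benjamini-Hochberg adjustment over all genes of the table and a threshold of 0.05; a knockdown is the mean of its 2 reagents. Standard deviations and errors limit the precision beside counting error. The pipeline was tested on simulated data. Members were described by role. Those changed at least 2-fold in a knockdown were given library by library there, and so were some others. Per pathway list, up to 3 called genes with the largest change per knockdown could be named. Members, lists and motifs were chosen with earlier results of these data known. Alternatives were edgeR 4.0.16 on the recovered reads, other pseudocounts (0.5 and 5), no filter, a mean of at least 50, equal totals, quantile normalization, a replicate block, only the groups compared and each library left out. A further neuroendocrine marker is not reported here. Replicate numbers did not pair the libraries.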

Additional observations from a re-analysis of the deposited data

Results flagged for a closer look

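A difference between the 2 reagents to 1 target was tested for every member, and 22 passed with limma (adjusted p under 0.05). Between circRMST shRNA 1 and shRNA 2, 10 of 29 members differed (all genes: 19.1%), 9 of them higher with shRNA 1 (10.9%) and 1 lower (8.2%). Those higher with shRNA 1 were PDE7B (log2 difference 1.48 ± 0.19 SE), ADCY2 (1.10 ± 0.11), PDE1C (0.88 ± 0.06), PDE3A (0.82 ± 0.07), ADCY9 (0.44 ± 0.07), PDE10A (0.40 ± 0.06), PDE8A (0.39 ± 0.07), PDE3B (0.31 ± 0.09) and PDE4D (0.27 ± 0.06). ADCY5 was lower with shRNA 1 (-1.44 ± 0.42, adjusted p = 0.0174). For ADCY2 and ADCY9 the shRNAs lay on either side of the shGFP mean.

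Between SOX2 siRNA 1 and siRNA 2, 7 of 26 members differed (all genes: 18.5%), 1 higher and 6 lower with siRNA 1. ADCY6 was higher (0.70 ± 0.23), and ADCY2 (-0.47 ± 0.11), PDE1C (-0.34 ± 0.07), PDE4D (-0.34 ± 0.06), PDE8A (-0.28 ± 0.07), PDE10A (-0.26 ± 0.06) and ADCY1 (-0.16 ± 0.05) were lower. Between NKX2-1 siRNA 1 and siRNA 2, 5 of 26 differed (all genes: 26.5%). ADCY6 (0.93 ± 0.23), PDE7A (0.39 ± 0.06), PDE8A (0.32 ± 0.07) and PDE1C (0.27 ± 0.07) were higher with siRNA 1, and PDE2A (-1.11 ± 0.21, adjusted p = 0.000268) was lower. PDE1C and PDE8A differed between the reagents to all 3 targets, and in each case both reagents moved them the same way from their controls.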

How the results depend on the processing

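Of 73 called fold changes of members, 57 stayed past the threshold in every alternative run, and 16 lost it in at least 1. Of the 907 alternative values, 860 kept direction and call, 46 lost the call and 1 changed sign: PDE4D with circRMST knockdown, at -0.01 with equal totals. The members lower with circRMST knockdown numbered 11, against 7 with a minimum mean of 50, and 6 to 14 with 1 library left out. Those higher numbered 9 to 10 with 1 library left out. For SOX2 knockdown these ranges were 3 to 4 higher and 14 to 15 lower, for NKX2-1 knockdown 5 to 7 and 6 to 8, and for SOX2 against NKX2-1 knockdown 4 to 5 and 13 to 15. With equal totals 12 members were higher with NKX2-1 knockdown in place of 7, the added ones being PDE3B, PDE4B, PDE6D, PDE7A and PDE8B; this scaling moved the median log2 fold change of all genes to 0.0537 in place of -0.0043 there, and to -0.143 in place of 0.00148 with circRMST knockdown. With the replicate number as a block, 5 members in place of 8 were lower with NKX2-1 knockdown, without PDE2A, PDE4A and PDE6A; si-control replicate 3 then has a block of its own and adds nothing. Same-numbered libraries had correlations of their deviations between -0.353 and 0.0999, so the numbers were not taken as pairs. For pathway genes, 68 of 76 called fold changes passed in every alternative. The causes were not tested. The fit to only the groups compared was not run for circRMST knockdown, whose table holds no other group. PDE1B, PDE6B, PDE6H and PDE9A were too low to test or not listed. PDE6C was too low with shRNAs only, and ADCY4, ADCY8, ADCY10 and PDE6G with siRNAs only. Groups of 2 or 3 libraries limit the small changes.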
